A study of Mus musculus with 6 samples.

Results

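Hepatocytes build most of the soluble protein of blood plasma, and 45 of their genes were followed in sorted red cell precursors: genes of plasma proteins, of liver transcription factors, of enzymes, of growth factors and of epithelial keratins. The genes were taken by name, with earlier results of these data known, as set out under the processing of the data. Each was read by the probe set that the array's annotation pairs with that gene alone and that had the highest mean log2 signal over all arrays. This gave 44 measured genes of 18193 in all. The only probe set of Trf, the iron carrier transferrin, is paired with a second gene too, so Trf was not analysed here. The samples were 6 pools of cells positive for Ter119, a surface antigen of maturing red cell precursors, taken from mouse fetal liver on embryonic day 14.5. Each pool combined cells of 3 to 5 embryos of 1 genotype, and 3 pools were wild type and 3 were STAT5 knockout. The labels give neither the allele of the knockout, nor a Cre driver, nor the strain, and both groups share the Ter119 sort. STAT5 stands for the paired transcription factors STAT5A and STAT5B, which act downstream of the erythropoietin receptor.

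The fetal liver holds hepatoblasts and young hepatocytes among a far larger number of blood-forming cells. A network of liver transcription factors, HNF4A and the FOXA proteins among them, switches on genes for albumin, alpha-fetoprotein, apolipoproteins and clotting factors in these cells. Plasma protein genes are not part of the known red cell program. STAT5 also acts in hepatocytes, where growth hormone activates it and Igf1 is a known target.

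The 4 promoters below are printed because they hold the letters that liver transcription factors are known to favour, in neighbouring gene pairs whose signals are compared further on. They come from RefSeq (build GRCm38.p6) and run from 250 bases before to 50 bases after the annotated gene start, 5′ to 3′ on the gene's strand. Capitals mark every match, on both strands, to the HNF1 type motif GTTAATNAT, the FOXA type motifs TGTTTGC and TGTTTAC, the C/EBP type motif TTGCNNAA and the STAT type motif TTCNNNGAA.
Alb (chr5:90460620-90460919, plus strand): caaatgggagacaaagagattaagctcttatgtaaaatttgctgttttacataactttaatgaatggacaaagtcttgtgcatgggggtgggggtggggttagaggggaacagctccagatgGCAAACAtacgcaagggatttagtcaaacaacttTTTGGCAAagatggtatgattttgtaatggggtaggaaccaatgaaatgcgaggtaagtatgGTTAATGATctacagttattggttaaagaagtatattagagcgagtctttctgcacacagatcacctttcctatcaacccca
Afp (chr5:90490464-90490763, plus strand): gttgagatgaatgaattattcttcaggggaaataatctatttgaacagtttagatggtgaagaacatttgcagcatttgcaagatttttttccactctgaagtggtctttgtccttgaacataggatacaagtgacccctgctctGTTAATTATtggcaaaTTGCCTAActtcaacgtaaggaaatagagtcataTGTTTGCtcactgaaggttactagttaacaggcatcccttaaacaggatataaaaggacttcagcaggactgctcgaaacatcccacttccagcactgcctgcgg
Fga (chr3:83025903-83026202, plus strand): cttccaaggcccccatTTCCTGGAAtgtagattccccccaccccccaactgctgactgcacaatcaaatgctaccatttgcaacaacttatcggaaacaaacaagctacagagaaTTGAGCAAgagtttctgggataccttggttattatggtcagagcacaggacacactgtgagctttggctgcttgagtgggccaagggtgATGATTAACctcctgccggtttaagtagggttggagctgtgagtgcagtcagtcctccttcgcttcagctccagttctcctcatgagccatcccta
Fgb (chr3:83049814-83050113, minus strand): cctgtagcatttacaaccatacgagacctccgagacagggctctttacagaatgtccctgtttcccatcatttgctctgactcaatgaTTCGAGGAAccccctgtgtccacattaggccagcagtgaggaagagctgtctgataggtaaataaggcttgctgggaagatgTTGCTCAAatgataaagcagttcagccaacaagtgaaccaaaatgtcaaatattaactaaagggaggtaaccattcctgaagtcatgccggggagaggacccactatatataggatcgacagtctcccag
Of the measured genes, 37 have a promoter in that table, and 6 of these have several, any of which could count. The HNF1 type letters stand in 3 of the 37 promoters (8.11%), those of Alb, Afp and Fga, against 0.940% of 27025 genes with a promoter of this length. Counted from the gene start, with bases before it negative, the match begins at -32 in Alb and -46 in Fga. The FOXA type letters TGTTTGC stand in 7 of 37 (18.9%, against 5.76% of all) and TGTTTAC in 6 of 37 (16.2%, against 4.05%). For the C/EBP type letters the counts were 11 of 37 (29.7%) against 12.2%. FOXA and C/EBP type matches can overlap, since both can hold the letters GCAA. The STAT type letters stand in 4 of 37 promoters (10.8%), those of Fga, Fgb, Itih4 and Vtn, against 9.55% of all genes. A match is a description of the letters in this window and not a site of binding.

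Values below are log2 of the deposited signal, given for replicates 1, 2 and 3 of each group in that order, and a difference is log2 signal in knockout minus wild type followed by its standard error (SE) from limma, fitted over all genes. With 3 arrays a group the precision is low, and a two-sided exact permutation test cannot go below a p of 0.1. The labels call the replicates biological repeats. Median signals of the arrays ran from 175.6 to 215.8, with the highest in wild type 2. The Stat5a and Stat5b probe sets, 4 in all, showed no overlap of the groups, with differences from -3.77 to -1.29. Whether these probe sets lie in the deleted part is not stated, so they check the labels only if they do. A signal of 162.5 (7.34 on the log2 scale), below which 95% of the values of 27 Bacillus subtilis control probe sets lie, is called the control level. All 10 measured erythroid markers lay above it in at least 1 group, as did Alb, Afp and Hnf4a, which define the hepatocyte. Of the 44 genes, 42 had a group mean above it and 2, Apoa4 and Fetub, did not.

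The hepatocyte genes were lower in knockout pools as a group, and no single gene of them passed the test. The difference was below 0 for 43 of 44 genes (97.7%), where 58.1% of all genes were below 0. Their median difference was -0.67, against -0.08 for all 18193 genes. For 24 of the 44 (54.5%) the knockout arrays all lay below the wild type arrays, where 9.85% of all genes did so, and for none of the 44 did they all lie above (7.02% of all genes). At an adjusted p of 0.05 (limma, Benjamini-Hochberg over all genes) 0 of 44 passed, where 0.044% of all genes did, and with a mean-variance trend again 0, where 0.44% did. The lowest adjusted p of the 44 was 0.368 without and 0.0542 with the trend (limma). Lower in knockout at an unadjusted p under 0.05 (limma) were 16 of 44 genes (36.4%, against 5.5% of all genes). In the submitters' own test, with an unadjusted p under 0.05 and more than 1.5-fold as their criterion, 6 of the 44 genes passed, Apom, Ahsg, Itih1, Fgg, Serpinf2 and Cps1, all lower (13.6%, against 2.84%). Over all probe sets of these genes, 66 lay above the control level in a group, of which 63 were lower in knockout, 35 without overlap, and 3 higher. Genes are not independent replicates, and these counts are not counts of independent events. The list was also chosen with earlier results of these data known. The shares of all genes beside the counts therefore describe the list and do not test it. The sort selects Ter119-positive cells, and how RNA of these genes came into the pools was not tested. In bulk RNA, fewer cells that make these transcripts and less of them per cell cannot be told apart.

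Wild type pools also differed among themselves. Wild type 2 had the highest signal of the 6 arrays for 40 of 44 genes, where it had the highest for 29.6% of all genes. Wild type 3 was the lowest of the wild type pools for 40 of 44, where it was for 42.8% of all genes. The order wild type 2, then 1, then 3 held for 38 of 44 genes (25.7% of all genes). The median of wild type 2 minus wild type 3 was 0.95 over the hepatocyte genes and 0.16 over all genes. The median distance from the mean of the knockout pools was 1.15 for wild type 2, 0.66 for wild type 1 and 0.24 for wild type 3. Wild type 3 lay within the knockout range for 17 genes, below it for 2 and above it for 25. Within knockout the pools were closer together: the range over 3 arrays had a median of 0.41 in knockout and 0.98 in wild type, and was wider in wild type for 36 of 44 genes. Over the 12442 genes above the control level these medians were 0.42 and 0.53. Across the 44 genes, wild type 2 minus wild type 3 correlated with wild type 1 minus the knockout mean by a Pearson r of 0.24. This is a description over genes of the same 6 arrays.

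**Figure D1:**
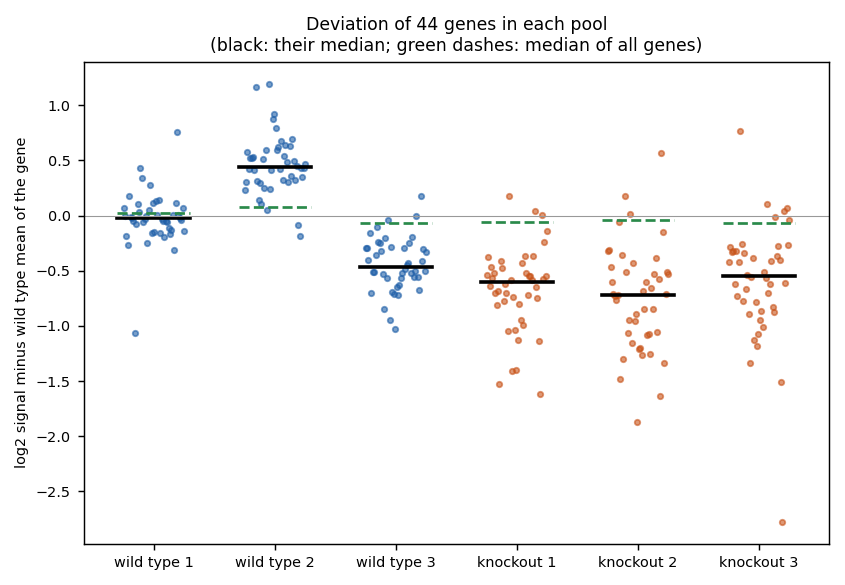
Log2 signal of each of the 44 hepatocyte genes minus that gene's wild type mean (vertical axis) in each pool (horizontal axis); each point is 1 gene, black bars are the median of the 44 and green dashes the median of all genes. The medians of the 44 were -0.02, 0.44 and -0.47 in wild type 1 to 3 and -0.60, -0.72 and -0.55 in knockout 1 to 3.

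The counts were repeated without single pools. Without wild type 2 the median difference was -0.45, and 24 of 44 genes had groups that did not overlap (14.6% of all genes were lower without overlap). Without wild type 3 the median was -0.93 and the count 34 of 44 (22% of all genes). Leaving out each knockout pool in turn gave medians between -0.69 and -0.59. The submitters' criterion was met by 19 genes without wild type 3, where 6.63% of all genes met it in either direction. It was met by 3 genes without wild type 1, knockout 1 or knockout 3 (4.27%, 4.39% and 4.19% of all genes), and by 4 without wild type 2 or knockout 2 (3.92% and 4.75%). Single genes moved as well: without wild type 2 the difference was over 1.5 times smaller for 22 of the 44 genes, and without wild type 3 it was over 1.5 times larger for 12. These moves were not counted over all genes. Wild type 2 also had the highest signal for 40 of 44 genes after quantile normalization and for 36 of 44 after median centring. The median deviation of wild type 2 from the wild type mean was then 0.48 and 0.29 over the 44 genes. Over all genes it was 0.015 and -0.071.

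Albumin, alpha-fetoprotein and the carriers of vitamins, heme and hormones had a median difference of -0.47 over 6 genes. Alb, the gene of albumin, the main carrier protein of plasma, read 15.85, 16.02 and 15.49 in wild type and 15.25, 15.46 and 15.37 in knockout. All knockout pools lay below all wild type pools, with 0.029 between the nearest pools, and the difference was -0.43 (SE 0.21). Afp, which encodes alpha-fetoprotein, the albumin of the fetus, read 15.70, 16.005 and 15.41 in wild type and 15.33, 15.39 and 15.42 in knockout. Knockout pools lay close together and wild type 3 among them, with a difference of -0.32 (SE 0.21) that ran from -0.47 without wild type 3 to -0.17 without wild type 2. Alb and Afp read between 60.3% and 91.0% of the highest signal of their array, and saturation of these probe sets was not tested. The other 4 Afp probe sets differed by -0.21, -0.20, -1.07 and -0.54, of which that at -1.07 lay below the control level. Rbp4, the retinol carrier, read 13.11, 13.79 and 13.21 in wild type and 12.90, 12.77 and 13.05 in knockout, with no overlap and a difference of -0.47 (SE 0.24). Hpx, hemopexin, which binds free heme, read 11.62, 11.97 and 10.74 in wild type and 10.88, 10.73 and 10.83 in knockout. Wild type 3 was here inside the knockout range while the other wild type pools stood above it, and the difference was -0.63 (SE 0.34). Ambp, the precursor of alpha-1-microglobulin and bikunin, read 12.90, 13.43 and 12.40 in wild type and 12.39, 12.18 and 12.59 in knockout, again with wild type 3 inside the knockout range (difference -0.52 (SE 0.30)). Ttr, the thyroid hormone carrier transthyretin, had means of 14.37 ± 0.51 in wild type and 13.89 ± 0.16 in knockout (SD, n = 3). At its brightest probe set the groups overlapped (difference -0.48), and at its other 3 probe sets they did not (-0.76, -0.68 and -0.53).

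Apolipoprotein genes, whose products carry lipids in plasma, were lower in knockout at 8 of 9 genes, with a median difference of -0.65. For 6 of the 9 the groups did not overlap. Apom, which carries sphingosine-1-phosphate on high density lipoprotein, read 11.55, 11.85 and 11.40 in wild type and 10.90, 10.54 and 10.71 in knockout. Its wild type pools lay within 0.45 of each other and all knockout pools below them, a difference of -0.88 (SE 0.21), 1.85-fold. The second probe set of Apom differed by -0.88 as well. Apom had the lowest adjusted p of the 44 genes with the mean-variance trend (0.0542, limma). Apob, the structural protein of low density lipoprotein, read 10.34, 10.73 and 10.18 in wild type and 8.89, 8.94 and 10.16 in knockout. Knockout 3 lay just under the wild type pools and the other knockout pools far below, with a difference of -1.09 (SE 0.40). Its second, dimmer probe set differed by 0.09. Apoa1 and Apoa2 encode the main proteins of high density lipoprotein. Apoa1 read 14.04, 14.59 and 13.54 in wild type and 13.36, 13.29 and 13.33 in knockout, a difference of -0.73 (SE 0.29). All 4 Apoa1 probe sets were lower in knockout, with differences from -0.73 to -0.51, and 3 of the 4 had no overlap. For Apoa2 the values were 14.23, 14.70 and 13.93 in wild type and 13.47, 13.56 and 13.86 in knockout, with no overlap and a difference of -0.65 (SE 0.26). Apoc1 and Apoc2, which modulate lipase activity, differed by -0.52 (SE 0.22) and -0.70 (SE 0.33), both without overlap. Apoh, beta-2-glycoprotein 1, had means of 12.10 ± 0.74 in wild type and 11.54 ± 0.05 in knockout, with wild type 3 below the knockout pools. A dimmer Apoh probe set differed by 0.03. Apoc3, an inhibitor of lipoprotein lipase, had a wild type mean just above the control level and a knockout mean below it, at least 1.12-fold higher in wild type, with overlapping groups. That fold only reflects dim values raised to the control level. The 95% confidence interval of the Apoc3 difference ran from -1.33 to 0.49 (limma), which includes 0. Apoa4, an apolipoprotein of the gut, lay below the control level in both groups.

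Fibrinogen and the inter-alpha-trypsin inhibitor heavy chains were the role groups of 3 or more genes with the lowest medians. The 3 fibrinogen chains, which form 1 protein and from it the fibrin clot, had nearly the same difference. Fga read 12.88, 13.82 and 12.38 in wild type and 11.90, 11.82 and 12.08 in knockout, a difference of -1.09 (SE 0.38), 2.14-fold. Fgb read 10.53, 10.99 and 9.68 in wild type and 9.60, 9.20 and 9.53 in knockout, a difference of -0.96 (SE 0.37), and Fgg 12.62, 13.23 and 11.98 in wild type and 11.67, 11.35 and 11.60 in knockout, a difference of -1.07 (SE 0.34). For all 3 the order of the wild type pools was 2, 1, 3, and every knockout pool lay below wild type 3. The 4 measured heavy chain genes had a median of -1.01, and for all 4 the groups did not overlap. Itih4 read 9.85, 10.66 and 8.71 in wild type and 8.34, 7.87 and 8.67 in knockout. Its wild type pools spanned 1.95 and the lowest of them lay 0.044 above the highest knockout pool, and the difference of -1.45 (SE 0.52) ranged from -1.97 to -0.99 without 1 array. Itih1 read 9.61, 9.80 and 9.27 in wild type and 8.15, 9.13 and 8.43 in knockout, a difference of -0.99 (SE 0.31), with wild type pools closer together. Itih3 read 11.12, 12.15 and 10.56 in wild type and 10.24, 10.38 and 10.09 in knockout (-1.04 (SE 0.42), from -1.39 without wild type 3 to -0.60 without wild type 2). Itih2 read 12.46, 12.59 and 11.48 in wild type and 11.44, 11.22 and 11.39 in knockout (-0.82 (SE 0.33)).

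Fetuins and kininogen, cystatin-like plasma proteins, had no common value. Ahsg, fetuin-A, which keeps calcium phosphate in solution, read 12.31, 12.93 and 11.77 in wild type and 11.29, 11.39 and 11.001 in knockout. No pools overlapped, and the difference was -1.11 (SE 0.33), 2.16-fold. Kng1, the source of bradykinin, read 10.89, 12.33 and 10.18 in wild type and 10.54, 9.98 and 10.75 in knockout. Wild type 2 stood 1.44 above the next pool, the groups overlapped, and the difference of -0.71 (SE 0.57) was -0.11 without wild type 2. A second Kng1 probe set differed by -0.66 with no overlap. Near-identical kininogen transcripts could share these probes, which was not tested. Fetub, fetuin-B, lay below the control level in both groups.

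Of 8 genes of clotting and clot removal all 8 were below 0, with a median of -0.75, and 5 had no overlap. Serpinf2, alpha-2-antiplasmin, the main inhibitor of plasmin, read 12.26, 12.63 and 12.07 in wild type and 11.77, 11.66 and 11.49 in knockout, a difference of -0.68 (SE 0.22). Serpinc1, antithrombin, read 11.12, 11.96 and 10.87 in wild type and 10.60, 10.24 and 10.70 in knockout (-0.81 (SE 0.33)). In both genes each knockout pool lay below wild type 3. Plg, plasminogen, the precursor of plasmin, read 12.02, 12.61 and 11.58 in wild type and 11.55, 10.99 and 11.37 in knockout (-0.77 (SE 0.32)), and only 0.033 separated wild type 3 from knockout 1. Vtn, vitronectin, an adhesive plasma protein, read 11.94, 12.69 and 11.54 in wild type and 11.47, 11.21 and 11.19 in knockout (-0.77 (SE 0.32)), and its second probe set differed by -1.05, also without overlap. F10, clotting factor X, had means of 9.56 ± 0.61 in wild type and 8.76 ± 0.22 in knockout without overlap. Its other probe sets differed by -0.32, and by -0.51 below the control level, both with overlapping groups. F2, prothrombin, Serpind1, heparin cofactor 2, and Proc, protein C, differed by -0.54, -0.74 and -0.29 with overlapping groups.

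The 4 liver transcription factor genes had a median of -0.44, and 1 of the 4, Foxa3, had no overlap. Hnf4a, the nuclear receptor at the centre of the hepatocyte program, read 10.35, 10.87 and 10.32 in wild type and 10.14, 9.99 and 10.49 in knockout, with knockout 3 above 2 of the wild type pools and a difference of -0.30 (SE 0.25) that ran from -0.45 without knockout 3 to -0.12 without wild type 2. For its remaining 3 probe sets the differences were -1.04, -0.89 and -0.17, with no overlap at -0.89 alone. Foxa3, a forkhead factor of the liver, read 8.42, 9.06 and 8.73 in wild type and 7.99, 8.16 and 8.34 in knockout (-0.58 (SE 0.23)). Foxa2 read 9.04, 9.52 and 8.52 in wild type and 8.38, 7.97 and 8.75 in knockout (-0.66 (SE 0.34)), and Foxa1 7.85, 8.67 and 7.42 in wild type and 8.02, 7.59 and 7.61 in knockout (-0.24 (SE 0.36)). For both of these the groups overlapped, and Foxa1 was 0.11 higher in knockout without wild type 2. The difference between these factors and the plasma protein genes was not tested.

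Of the liver enzymes, Cps1, the first enzyme of the urea cycle, read 9.89, 10.22 and 9.21 in wild type and 8.63, 8.14 and 8.27 in knockout. Each knockout pool lay at least 0.58 below each wild type pool, and the difference of -1.43 (SE 0.31), 2.69-fold, had the lowest adjusted p of the 44 genes (0.368, limma). Tat, tyrosine aminotransferase, an enzyme that matures around birth, read 8.22, 7.37 and 6.79 in wild type and 5.84, 8.03 and 4.68 in knockout. Only wild type 1, wild type 2 and knockout 2 lay above the control level, and the groups overlapped.

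Growth factor and keratin genes did not share 1 value. Igf2, the fetal insulin-like growth factor, an imprinted gene, read 13.24, 13.69 and 12.85 in wild type and 12.68, 11.92 and 12.65 in knockout, with no overlap and a difference of -0.84 (SE 0.32). A dimmer Igf2 probe set differed by -0.53 with overlapping groups. Igf1, the target of growth hormone and STAT5 in postnatal liver, read 10.18, 9.99 and 10.35 in wild type and 10.18, 10.02 and 10.22 in knockout. Its pools of both genotypes lay within 0.36 of each other, and the difference was -0.03 (SE 0.18). The other 3 Igf1 probe sets differed by -0.40, -0.04 and 0.40. The 95% confidence interval of the Igf1 difference ran from -0.48 to 0.42 (limma), which does not show equal levels. Dlk1, a Notch-family ligand of hepatoblasts, read 13.53, 13.92 and 13.26 in wild type and 13.33, 12.86 and 13.63 in knockout (-0.29 (SE 0.29)). A second Dlk1 probe set differed by 0.40 at signals below the control level in both groups. Krt8, a keratin of simple epithelia, read 10.87, 11.23 and 10.30 in wild type and 10.25, 10.29 and 10.53 in knockout (-0.45 (SE 0.28)). Krt18, its partner in the filament, read 9.67, 10.27 and 9.47 in wild type and 9.66, 9.28 and 9.77 in knockout (-0.24 (SE 0.28), from -0.40 without wild type 3 to -0.0013 without wild type 2). At the chosen probe sets of Igf1, Dlk1, Krt8 and Krt18 the groups overlapped. The other Krt8 probe sets differed by -0.47 with overlap and by -0.62 without overlap.

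**Figure D2:**
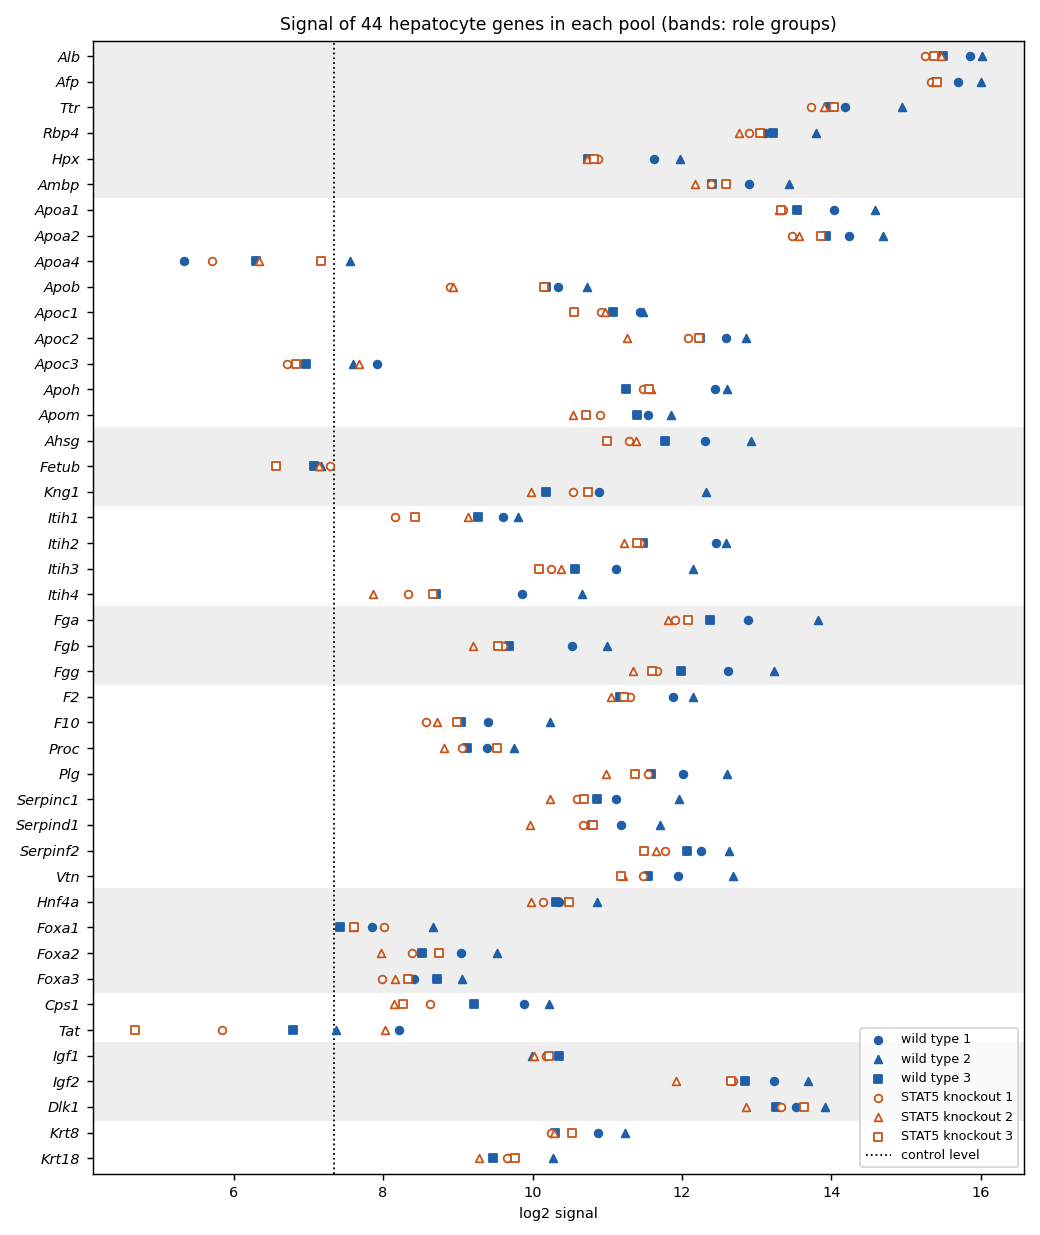
Log2 signal (horizontal axis) of each of the 44 hepatocyte genes in the 6 pools, wild type in filled blue and STAT5 knockout in open orange symbols, with grey bands for role groups and a dotted line at the control level of 7.34. Wild type 2 is the rightmost symbol for 40 of the 44 genes, and wild type 3 often lies beside the knockout pools.

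**Figure D3:**
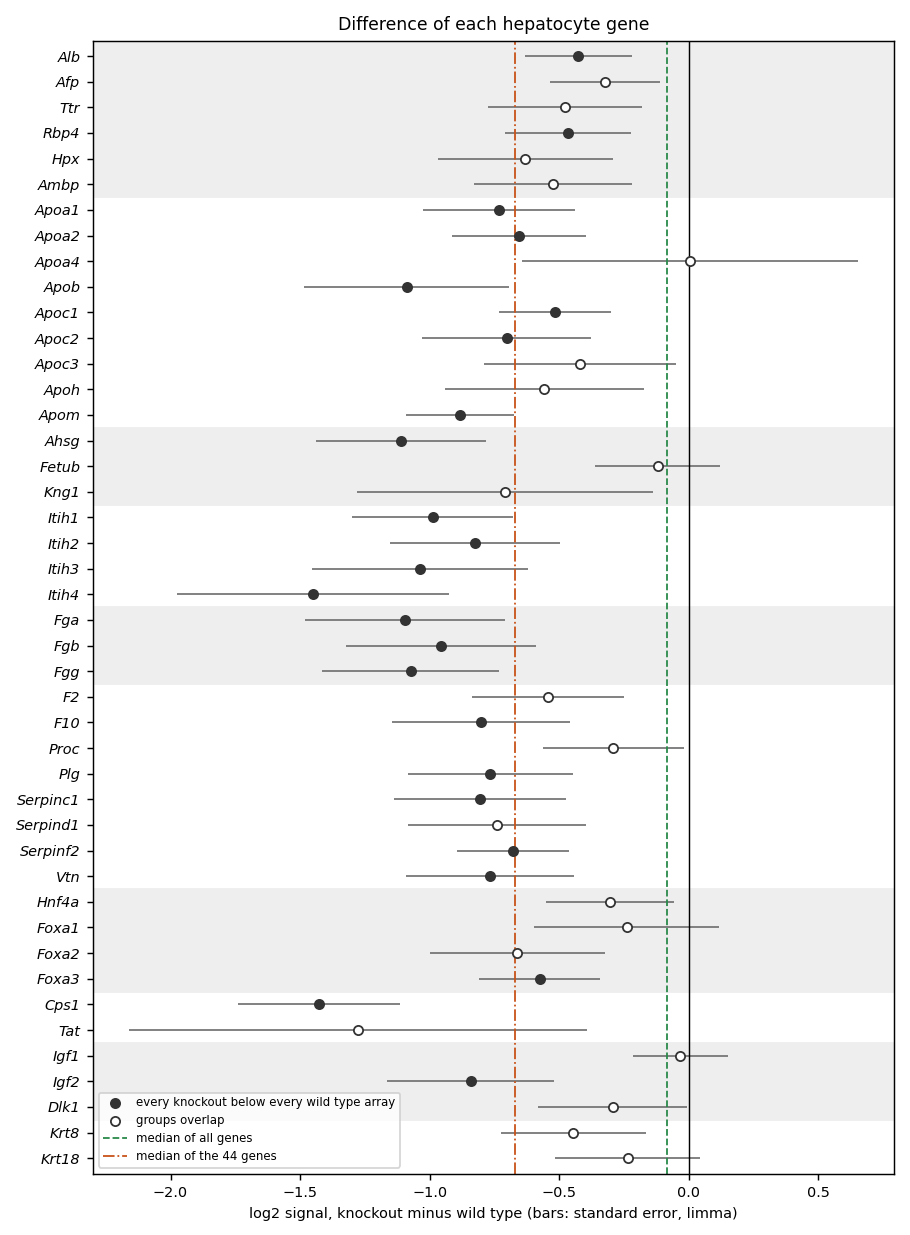
Difference in log2 signal, knockout minus wild type (horizontal axis), for each of the 44 genes; points are estimates of limma's fit and bars are 1 standard error, filled where the groups did not overlap. The median of the 44 is -0.67 and that of all genes is -0.08.

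Many of these genes lie side by side in the genome, and neighbours had like or unlike differences. In the RefSeq gene table Fgg, Fga and Fgb follow each other on chromosome 3 with 0 protein-coding genes between them (-1.07, -1.09 and -0.96). Itih4, Itih3 and Itih1 do so on chromosome 14 (-1.45, -1.04 and -0.99), and Alb and Afp on chromosome 5 (-0.43 and -0.32). On chromosome 16 Ahsg (-1.11) is next to Fetub (-0.12), whose signal was below the control level. On chromosome 9 Apoa1 (-0.73), Apoc3 (-0.42) and Apoa4 (0.01) are in a row, of which Apoa1 alone stood above the control level in both groups. Whether neighbours differ less than other pairs was not tested.

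Hepatocyte genes outside the 45, also chosen with earlier results of these data known, were measured beside them. Wild type 2 had the highest of the 6 signals for 53 of 75 such genes, and wild type 3 was the lowest wild type pool for 59. Of all genes, 58.1% were below 0 and 9.85% were lower in knockout without overlap. Of 31 measured genes of other secreted proteins, 28 were below 0 (median -0.57) and 10 of these had no overlap. Their summed linear signal was 33205 to 77250 in wild type and 29248 to 30402 in knockout, and the sum over the 44 genes was 224492 to 390257 and 193178 to 213976. Of 27 genes of other enzymes and transporters 26 were below 0 (median -0.47, 7 without overlap), and of 17 other hepatic transcription factors 15 (median -0.34, 5 without overlap). None of these 75 genes passed an adjusted p of 0.05 with or without the trend (limma), and 17 had an unadjusted p under 0.05 (22.7%, against 8.9% of all genes). Of the 17, 16 were lower in knockout, and the other, Orm1, differed by 1.10 at a signal below the control level in both groups. Some had wild type pools that lay close together. Acox2, an enzyme of bile acid side chain oxidation, read 10.18, 10.004 and 10.09 in wild type and 9.27, 9.45 and 9.38 in knockout, a difference of -0.72 (SE 0.17). Slc27a5, a bile acid CoA ligase, read 8.78, 8.89 and 8.57 in wild type and 8.05, 8.06 and 8.003 in knockout (-0.71 (SE 0.17)). Ppara, a nuclear receptor of fatty acid oxidation, read 8.69, 8.78 and 8.78 in wild type and 7.85, 7.35 and 8.09 in knockout (-0.99 (SE 0.24)). For these 3 genes wild type 3 was not near the knockout pools. They were named for having the smallest p of their lists, a choice that favours such a gap. Xbp1, a factor of secretory cells, differed by -0.59 (SE 0.17), and Apof and Agt, the genes of apolipoprotein F and angiotensinogen, by -0.95 (SE 0.29) and -1.08 (SE 0.34). Igfbp1, a binding protein of insulin-like growth factors, named after its values were seen, went the other way: it read 9.98, 10.33 and 9.59 in wild type and 9.70, 10.65 and 11.78 in knockout, with overlapping groups.

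Markers of other fetal liver cells were measured beside the hepatocyte genes, again with 58.1% of all genes below 0 and 9.85% lower in knockout without overlap. Of 15 liver endothelial markers 14 were below 0 (median -0.36), 3 without overlap, and 4 were below the control level in both groups: Pecam1, Tek, Tie1 and Cd34. Clec4g and Lyve1, surface proteins of sinusoidal endothelium, did not pass the test. Clec4g was at least 1.85-fold higher in wild type (adjusted p = 0.0937, limma, and 0.422 with the replicate block), and its difference was -1.03 as the mean of its probe sets (adjusted p = 0.532). Lyve1 was at least 4.04-fold higher in wild type (adjusted p = 0.381, limma). The summed signal of the endothelial list was 6498 to 9838 in wild type and 5776 to 6612 in knockout. Its lowest wild type pool was wild type 1, not 3, so the order of the wild type pools was not that of the hepatocyte genes. By summed signal wild type 1 was also the lowest wild type pool for the cholangiocyte and hepatoblast, stellate and mesenchymal, and macrophage lists. Erythroid markers were highest in wild type 1 and lowest in wild type 3 of the wild type pools. Of 10 cholangiocyte and hepatoblast markers 7 were below 0 (median -0.46), with Epcam at -0.51 and Cdh1 at -0.66. Groups did not overlap for 3 of the 10, and 5 were below the control level in both groups. Sall4, named after its values were seen, went the other way (0.98), with overlapping groups and only its knockout mean above the control level. Krt19, Krt7 and Sox9, which define bile duct cells, were below the control level in both groups. Of 15 stellate and mesenchymal markers 8 were below 0 and 0 had groups without overlap (median -0.10, summed signal 5273 to 9635 against 5128 to 8508), and Lrat and Pdgfrb were below the control level. Vim differed by -0.43 and Rgs5 by 0.26. Of 15 macrophage markers 6 were below 0 (median 0.14, summed signal 27750 to 46363 against 33986 to 48670), with Vcam1 at -0.68 and Marco at 0.75. Of 10 erythroid markers 9 were below 0 (median -0.15), with Tfrc at -0.38 and Epb42 at -0.39, and their summed signal was 291944 to 310608 against 242144 to 315384. Alas2, Slc4a1 and Car2 among them read at 80.7% to 93.3%, 78.4% to 83.5% and 73.9% to 90% of the highest signal of their array, and their saturation was not tested either. The part of any of these cells in the hepatocyte gene values was not tested.

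**Figure D4:**
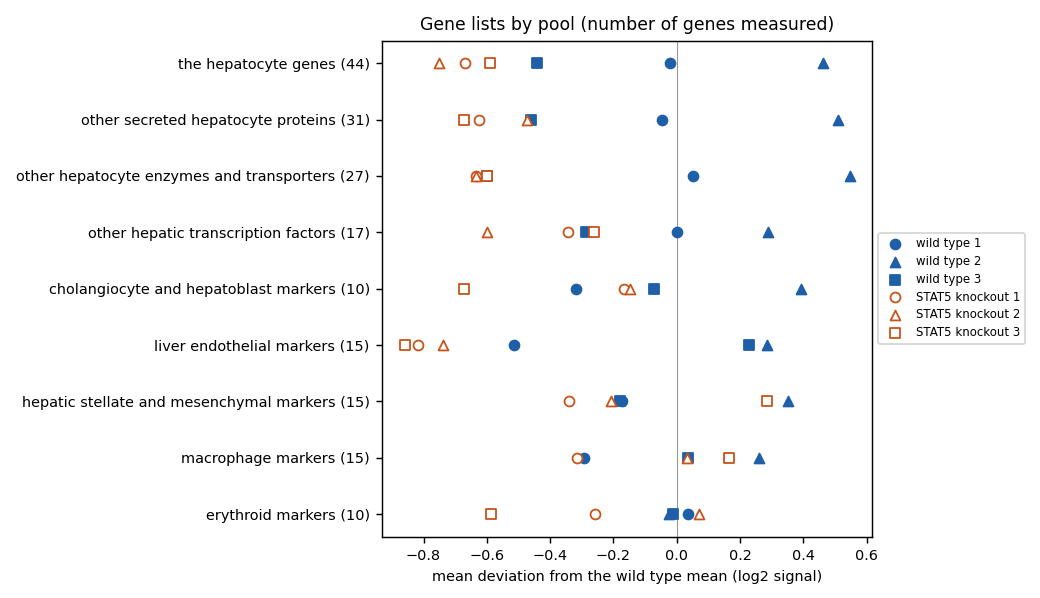
Mean deviation from the wild type mean in log2 signal (horizontal axis) for the 44 hepatocyte genes and 8 further gene lists (rows, number of genes measured in brackets), 1 symbol for each pool. The 44 hepatocyte genes read -0.02, 0.46 and -0.44 in wild type 1 to 3 and -0.67, -0.75 and -0.59 in knockout 1 to 3. Endothelial, macrophage, erythroid, and cholangiocyte and hepatoblast markers have another order of the wild type pools.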

How the data were processed

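Arrays were Affymetrix Mouse430_2, 1 for each pool, from biotin-labelled total RNA, per the labels. The authors deposited 1 linear intensity per probe set and array. RMA and Partek are named, with no version, in the submitters' processing notes, but the deposited intensity values are linear, and the mean of every array is 500 once the lowest and highest 2% are dropped. How this was made, and the genome build, are not given in the sources used here. Log2 was taken with no pseudocount. Of 45037 probe sets, 34945 had 1 gene symbol. The members and the other gene lists were chosen with earlier results of these data known. Every gene was fitted with limma 3.58.1 (R 4.3.3, lmFit and eBayes, no filter, no block), with Benjamini-Hochberg adjustment over 18193 genes and a threshold of 0.05. The script was tested on simulated data: it called 83 of 100 genes given a log2 change of 4 and 56 of 100 given one of 2. Of 17993 genes given no change it called 6. Smaller changes were not simulated, and every difference of the 44 genes was smaller (the lowest was -1.45), so their detection was not tested.

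Named were up to 4 genes a role above the control level, smallest p first, Alb, Afp, Stat5a and Stat5b, and 2 genes from each other list. Igfbp1, Sall4, Krt19, Krt7, Sox9 and other genes named only as below the control level, and the remaining members, were added as values. A fold is given as "at least" where the dimmer group lies below the control level, with dim values raised to it. Same-numbered pools were checked for pairing: their deviations correlated by 0.023, 0.041 and 0.037 across genes, and the labels name no shared litter. Tried as alternatives were a mean-variance trend, the methods' t-test, quantile normalization, median centring, leaving out the dim 50% of probe sets, the replicate block, leaving out each array (with each gene's probe set held), adding 32, the mean of probe sets, and leaving out probe sets ending in _x_at, _s_at or _a_at.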

Additional observations from a re-analysis of the deposited data

How the results depend on the processing

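Under all 15 alternatives tried 0 of the measured genes passed the adjusted threshold. The median difference lay between -0.70 and -0.56 under other scalings, tests and probe set choices (-0.69 without genes below the control level). Without 1 array it lay between -0.93 and -0.45, where all arrays gave -0.67. Groups without overlap numbered 21 of 44 after quantile normalization, 19 of 35 without x, s and a probe sets, and 24 of 40 without the dim probe sets. Under the remaining scalings, tests and probe set choices they numbered 23 to 26 of 44. Under these alternatives 6.63% to 10.4% of all genes were lower without overlap. Without 1 array the groups without overlap numbered 24 to 34, where 14.6% to 22% of all genes were lower without overlap. The submitters' criterion was met by 5 to 7 genes under the other scalings, tests and probe set choices (2.84% of all genes, lower in knockout, in the main fit). Without 1 array it was met by 3 to 19, where 3.92% to 6.63% of all genes met it in either direction. In the fit with a replicate block, 0 of the 44 genes passed, their lowest adjusted p was 0.548 (limma), and the median stayed at -0.67; same-numbered pools did not deviate together. Over all genes the median was -0.08; quantile normalization moved it to -0.04 and median centring to 0.03, and differences should be read against this shift. Of single genes, 5 changed sign. Apoa4 differed by -0.0275 with 32 added, -0.14 as the mean of probe sets, -0.28 without x, s and a probe sets, and between -0.52 and 0.59 without 1 array. Igf1 differed by 0.0812 after median centring, 0.40 without x, s and a probe sets, and between -0.12 and 0.0573 without 1 array. Dlk1 differed by 0.0554 as the mean of probe sets and 0.40 without x, s and a probe sets. Both values draw on its second probe set, which lay below the control level in both groups (means 4.61 and 5.01). Its bright probe set differed by -0.29. Fetub differed by 0.0155 after quantile normalization and between -0.27 and 0.0964 without 1 array, and Foxa1 between -0.52 and 0.11. The cause was not tested. Signals close to the highest of their array limit Alb and Afp, whose saturation was not tested, and signals near the control level limit Apoa4, Apoc3, Fetub and Tat. Signals below that level limit the second Dlk1 probe set.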
